A study of Mus musculus with 7 samples.

Results

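The genes described here are 43 enzymes of glycolysis, gluconeogenesis and the citric acid cycle, measured by bulk RNA sequencing of whole mouse kidney. They were taken as the rows of the deposited count table whose Ensembl identifier maps to the symbol of such an enzyme, and they make up 43 of 42256 rows. The study compared 3 kidneys labelled CDH11+/+ with 4 labelled CDH11-/-, the alleles of Cdh11, which encodes the adhesion molecule cadherin-11. All 7 were adult male mice of a mixed 129S1/Sv x C57BL/6 background, and the kidneys were flash frozen. Mice of both genotypes had one kidney removed and an osmotic pump delivering angiotensin II at 800 ng/kg/min, and the tissue was taken 4 weeks after surgery. No kidney without this injury was analysed here, so the comparison is between genotypes within injured tissue. The labels do not describe how the allele was made, and they do not tie a mouse of either genotype to a litter or batch.

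Glycolysis splits glucose to pyruvate in the cytosol, lactate dehydrogenases interconvert pyruvate and lactate, and the pyruvate dehydrogenase complex feeds pyruvate into the citric acid cycle of mitochondria. Gluconeogenesis runs the reverse way through a few enzymes of its own. In the kidney, the proximal tubule is known for gluconeogenesis and for oxidising lactate, fatty acids and glutamine in its many mitochondria. Distal nephron segments are known for a higher glycolytic capacity. In whole tissue, fewer cells of a type and less RNA per cell cannot be told apart.

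Libraries held 72087906 to 84786351 counts, and values below are depth-scaled counts (CPM) on TMM-scaled library sizes, given in replicate order. TMM, the trimmed mean of M values, scales libraries so that most genes have equal levels. Genes are named as called where edgeR's 2-sided quasi-likelihood test over all 17964 genes with enough counts gave an adjusted p (Benjamini-Hochberg) under 0.05. Adjusted p values below come from that test, save where another tool, a left-out library or an alternative analysis is named. The targeted transcript, Cdh11 (chromosome 8), was present at 6.79, 4.52 and 10.8 CPM in the libraries labelled CDH11+/+ and 11.3, 9.56, 11.6 and 10.98 CPM in those labelled CDH11-/-. It was not lower in the knockout-labelled libraries (log2 fold change 0.56, SE 0.25, edgeR adjusted p = 0.140). Without wild-type replicate 3 that value was 0.93 (edgeR adjusted p = 0.0043). Since the allele is not described, reads outside a deleted part are possible, and the transcript does not check the labels. All directions below are therefore between libraries as labelled. Wild-type replicate 3 stood apart: the Y-linked genes Ddx3y, Eif2s3y, Kdm5d and Uty (chosen after their values were seen) summed to 64.7 CPM in it and to 111 to 145 CPM in the other 6 libraries. Whether this library holds RNA of more than 1 mouse was not tested. Mitochondrial ribosomal RNA took 13.5% to 18.2% of counts in wild-type-labelled libraries and 10.7% to 13.5% in the knockout-labelled ones, and its part in the differences below was not tested.

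Most enzymes from pyruvate onward were higher in the knockout-labelled libraries, while Hk1, Hk2 and Pkm, of the first and last steps of glycolysis, were lower. All 43 enzymes passed the low-count filter. Of them, 22 were called higher, 5 were called lower and 16 were not called. That is 51.2% higher and 11.6% lower, against 16.8% of all tested genes called higher and 12.9% called lower. Calls were more frequent among abundant genes. A mean of at least 10 CPM was reached by 41 of the 43 enzymes, and of the 8978 genes at or above that level 23% were called higher and 17.1% lower. The range of the knockout-labelled values lay wholly above that of the wild-type-labelled ones for 24 enzymes and wholly below it for 6, against 21.9% and 16.6% of all tested genes. The median log2 fold change of the 43 was 0.21, with single genes from -1.43 to 1.18, and the median of all tested genes was -0.01. Without wild-type replicate 3, 19 enzymes were called higher and 5 lower. Without wild-type replicate 1, 13 were called higher and 6 lower.

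**Figure D1:**
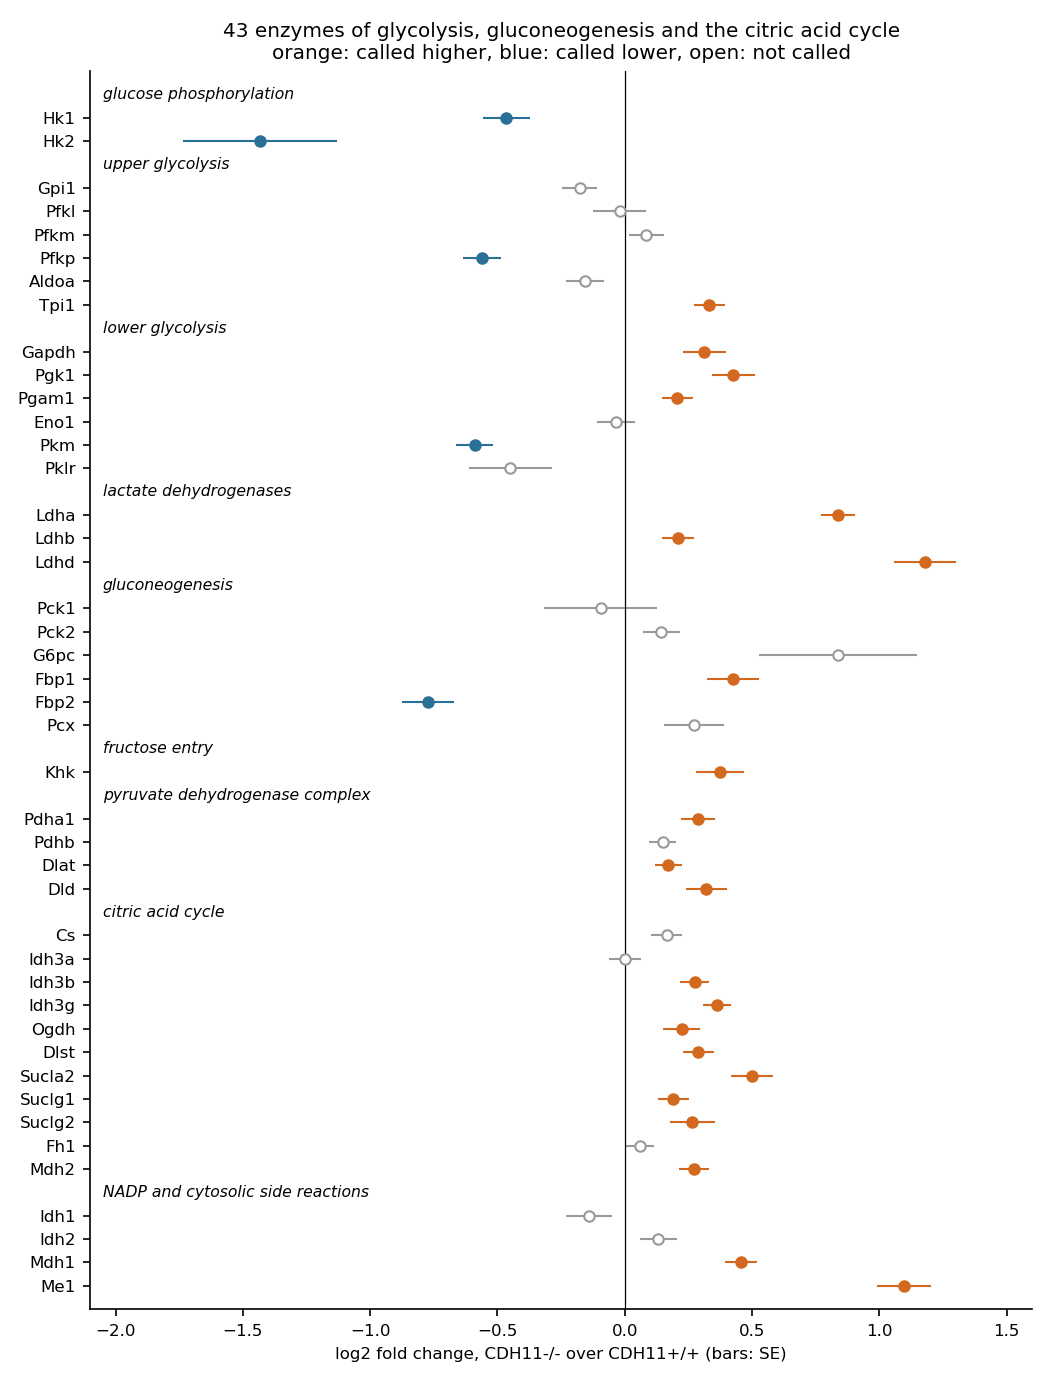
Log2 fold change of each of the 43 enzymes, libraries labelled CDH11-/- over those labelled CDH11+/+, with bars of 1 SE, grouped by step of the pathway. The 22 enzymes called higher are in orange, the 5 called lower in blue and the 16 not called are open, and the citric acid cycle holds 8 called higher and 0 called lower.

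The bases in front of the start sites are shown for 4 of the 5 enzymes with the smallest adjusted p (the fifth, Pkm, has an annotated exon in that window) and for Ogdh, which shares a motif with Ldha. Windows of 250 bases before the start of 42 of the 43 enzymes came from RefSeq on GRCm38.p6, and bases that GENCODE M21 assigns to an exon were left off the printed sequences. Capitals mark 5 letter strings searched on both strands. They are ACGTG, the core of sites bound by hypoxia-inducible factors and, within CACGTG, by E-box proteins, then GCGTG, the other common form of the hypoxia core, then TGACGTC, most of the cyclic AMP response element, then AAGGTCA, a nuclear receptor site, and last GGGCGG, the GC box. The palindromes CACGTG and TGACGTCA match on both strands and count once for each. The Ldha window is chr7:46845554-46845803 (plus strand), between exons of a longer GENCODE gene model, that of Ldhd is chr8:111630375-111630586 (minus strand), that of Me1 is chr9:86695954-86696164 (minus strand), that of Pfkp is chr13:6648778-6649021 (minus strand) and the stretch of Ogdh is chr11:6291516-6291582 (plus strand).
Ldha: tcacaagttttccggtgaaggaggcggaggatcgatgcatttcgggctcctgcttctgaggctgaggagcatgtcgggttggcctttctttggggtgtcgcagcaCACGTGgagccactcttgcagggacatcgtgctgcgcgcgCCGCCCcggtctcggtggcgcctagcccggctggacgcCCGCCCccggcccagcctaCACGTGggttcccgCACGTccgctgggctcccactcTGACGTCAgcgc
Ldhd: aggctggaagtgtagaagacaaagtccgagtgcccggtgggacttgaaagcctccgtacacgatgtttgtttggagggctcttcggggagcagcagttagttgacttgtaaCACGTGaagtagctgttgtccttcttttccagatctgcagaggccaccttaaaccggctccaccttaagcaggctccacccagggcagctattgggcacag
Me1: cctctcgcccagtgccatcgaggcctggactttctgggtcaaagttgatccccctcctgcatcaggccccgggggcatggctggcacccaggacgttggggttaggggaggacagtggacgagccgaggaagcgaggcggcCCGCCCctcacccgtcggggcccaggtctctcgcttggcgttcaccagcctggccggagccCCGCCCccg
Pfkp: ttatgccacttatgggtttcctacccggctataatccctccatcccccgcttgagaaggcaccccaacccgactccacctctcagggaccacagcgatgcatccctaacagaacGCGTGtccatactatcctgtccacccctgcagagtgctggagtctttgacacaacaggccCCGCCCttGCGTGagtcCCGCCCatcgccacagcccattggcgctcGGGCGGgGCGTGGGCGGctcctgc
Ogdh: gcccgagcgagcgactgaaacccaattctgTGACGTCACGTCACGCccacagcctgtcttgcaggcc
Ldha held 5 matches to ACGTG, 2 to TGACGTC and 2 to GGGCGG. Ldhd held 2 matches to ACGTG, both from 1 CACGTG. In Pfkp the matches were 3 to GCGTG and 4 to GGGCGG, and in Me1 they were 2 to GGGCGG. The Ogdh stretch held 2 matches to TGACGTC, 1 to ACGTG and 1 to GCGTG. In the full windows, ACGTG occurred in 13 of 42 enzymes (31.0%) and in 16.5% of 27025 mouse promoters, and it was found in 8 of 22 enzymes called higher, 2 of 5 called lower and 3 of 15 not called. TGACGTC occurred in 4 of 42 (9.52%) and in 2.86% of all promoters, and its holders, Idh3g, Ldha, Mdh2 and Ogdh, were among those called higher. GCGTG was found in 35.7% of the enzymes and in 28.3% of all promoters. For GGGCGG the shares were 57.1% and 33.0%, and for AAGGTCA 2.38% and 4.04%. These matches describe letters in a window and were not measured as bound sites.

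Both hexokinases, which trap glucose in the cell as glucose 6-phosphate, were lower. Hk1 (ENSMUSG00000037012, mm10 chromosome 10, 62268855 to 62379908, minus strand) was at 144, 131 and 149 CPM in wild-type-labelled libraries and 106, 87.5, 101 and 115 CPM in the knockout-labelled ones. All 4 knockout-labelled values lay below the 3 others, a 1.38-fold lower level (log2 fold change -0.47, SE 0.09, edgeR adjusted p = 0.00565). Hk2 (ENSMUSG00000000628, mm10 chromosome 6, 82725025 to 82774454, minus strand), the inducible form, was scarce, at 2.18, 1.89 and 3.88 CPM against 1.23, 0.657, 1.19 and 0.84 CPM. Its groups did not overlap either, and the level was 2.70-fold lower (log2 fold change -1.43, SE 0.30, edgeR adjusted p = 0.00752), but the highest value came from wild-type replicate 3. Without that library the log2 fold change of Hk2 was -1.06 (edgeR adjusted p = 0.0184). Per kilobase of exon, Hk1 stood at 16.5 CPM and Hk2 at 0.444 CPM in wild-type-labelled libraries, so Hk1 made up nearly all of the hexokinase signal. Hk2 took 1.82% ± 0.62 (SD, n = 3) of the summed CPM of the pair in wild-type-labelled libraries and 0.95% ± 0.24 (SD, n = 4) in knockout-labelled ones, with no overlap. Another kinase from outside the 43, Hkdc1, a hexokinase domain protein, was at 4.78, 5.46 and 4.69 CPM against 2.88, 2.79, 2.06 and 2.57 CPM, also without overlap (log2 fold change -0.95, SE 0.14, edgeR adjusted p = 0.00149).

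Of the 6 enzymes of upper glycolysis, the platelet-type phosphofructokinase Pfkp was called lower, triose phosphate isomerase Tpi1 was called higher, and 4 were not called. At 16.7% each way, these counts were near the shares of all tested genes, 16.8% higher and 12.9% lower. Among tested genes averaging 10 CPM or more, as all 6 did, the shares were 23% and 17.1%. Pfkp (ENSMUSG00000021196, mm10 chromosome 13, 6579768 to 6648777, minus strand), 1 of 3 phosphofructokinases of the committed step, was at 79.95, 76.01 and 78.9 CPM in wild-type-labelled libraries and 53.9, 48.6, 50.5 and 59.4 CPM in knockout-labelled ones. The groups were far apart and the level was 1.47-fold lower (log2 fold change -0.56, SE 0.07, edgeR adjusted p = 0.000775). The liver-type Pfkl, at 44.9, 38.3 and 48.1 CPM against 41.8, 39.1, 50.3 and 41.5 CPM, overlapped between groups (log2 fold change -0.02, SE 0.10, edgeR adjusted p = 0.904). So did the muscle-type Pfkm, at 37.8, 38.8 and 44.2 CPM against 42.8, 42.5, 44.04 and 41.6 CPM (log2 fold change 0.09, SE 0.07, edgeR adjusted p = 0.373). The make-up of the trio thus differed by label. Pfkp was 49.2%, 49.7% and 46.1% of the summed CPM of the 3 genes in wild-type-labelled libraries and 38.9%, 37.3%, 34.9% and 41.7% in knockout-labelled ones. Every knockout-labelled share lay below every wild-type-labelled one. Pfkm went from 24.8% ± 1.36 (SD, n = 3) to 30.8% ± 1.42 (SD, n = 4) and Pfkl from 26.9% ± 1.65 to 31.0% ± 2.51. These shares are descriptions, since 3 against 4 libraries cannot go below p = 0.057 in an exact 2-sided permutation test. They are also not scaled for exon length, so they are not shares of transcripts. Per kilobase of exon, Pfkm stood at 12.1 CPM, Pfkl at 6.56 CPM and Pfkp at 5.84 CPM in wild-type-labelled libraries. Exon length here is that of all annotated exons of a gene merged, 13401 bases for Pfkp and 3340 bases for Pfkm. It can exceed the length of the transcripts present, so the order of the trio by transcripts is uncertain. Tpi1, at 294, 284 and 297 CPM against 387, 370.3, 362 and 350.4 CPM, was 1.26-fold higher without overlap (log2 fold change 0.33, SE 0.06, edgeR adjusted p = 0.00429). Phosphoglucose isomerase Gpi1, at 284, 312 and 306 CPM against 285, 256, 253 and 270.4 CPM, was not called (log2 fold change -0.18, SE 0.07, edgeR adjusted p = 0.0837). Aldolase A (Aldoa), at 603, 647 and 595 CPM against 603, 531, 536 and 538 CPM, also missed the threshold (log2 fold change -0.16, SE 0.07, edgeR adjusted p = 0.141). Values of enzymes that were not called were chosen for printing after they had been seen.

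**Figure D2:**
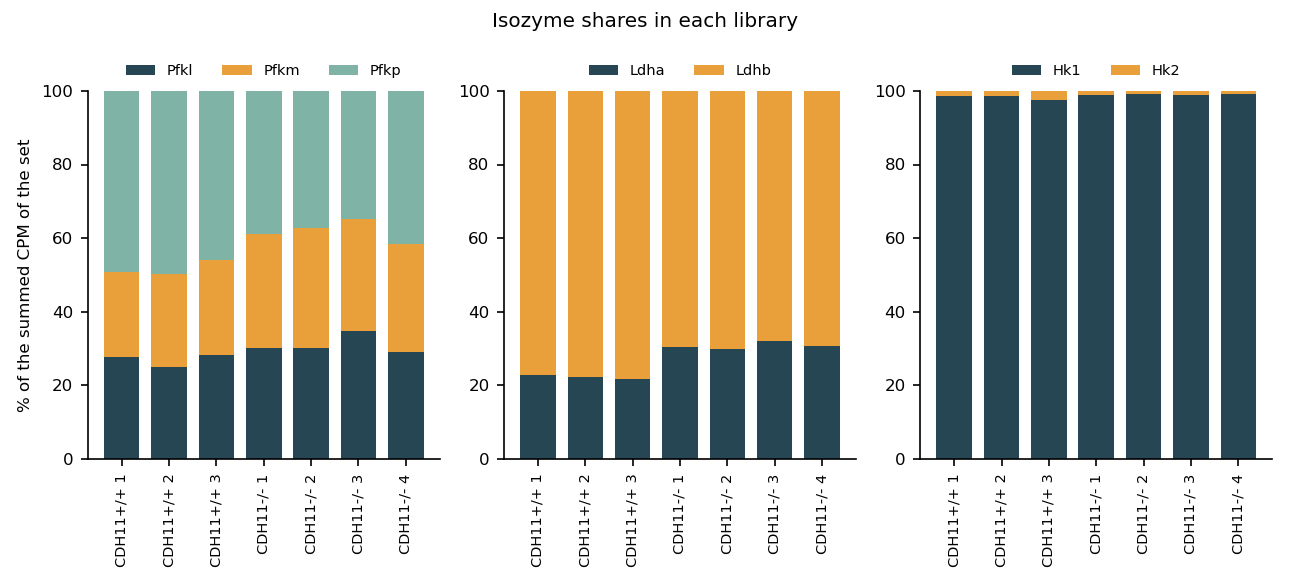
Share of the summed CPM of each isozyme set in each of the 7 libraries, as stacked bars from 0 to 100%. CPM was not scaled for exon length here. Pfkp is 46.1% to 49.7% of its trio in libraries labelled CDH11+/+ and 34.9% to 41.7% in those labelled CDH11-/-, and Ldha is 21.6% to 22.8% of its pair in the former and 29.8% to 31.9% in the latter.

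In lower glycolysis, 3 of 6 enzymes were called higher and 1 lower, where 23% and 17.1% of tested genes averaging 10 CPM or more were. Pgk1, phosphoglycerate kinase, which makes ATP, was at 134, 138 and 119 CPM in wild-type-labelled libraries and 159.99, 186, 168 and 189 CPM in knockout-labelled ones. Gapdh, the dehydrogenase before it, was at 119, 145 and 146 CPM against 169, 172, 159 and 179 CPM. Pgam1, the mutase after it, was at 174, 163 and 167 CPM against 185, 189.8, 198 and 202 CPM. In each of these 3 the knockout-labelled values lay above all others, with levels 1.34-fold (Pgk1), 1.24-fold (Gapdh) and 1.15-fold (Pgam1) higher and edgeR adjusted p values of 0.00504, 0.0204 and 0.0285. These 3 genes share reads with processed pseudogenes, which are near-identical copies elsewhere in the genome, and the sources used here do not say how such reads were divided. Rows of 66 Gapdh copies held 80.5% to 83.96% of the joint counts, 2 copies of Pgk1 held 41.1% to 53.2% and 1 copy of Pgam1 held 16.8% to 22.5%. With the copies' counts added, a check chosen after seeing the data, the log2 fold changes were 0.34 for Gapdh (edgeR adjusted p = 0.0104), 0.35 for Pgk1 (edgeR adjusted p = 0.00322) and 0.20 for Pgam1 (edgeR adjusted p = 0.0320). Eno1, enolase, was at 378, 394 and 452 CPM against 404, 393, 403 and 393 CPM, with overlapping groups (log2 fold change -0.04, SE 0.07, edgeR adjusted p = 0.754). The call of Gapdh was lost without wild-type replicate 1, knockout replicate 2 or knockout replicate 4 (edgeR adjusted p up to 0.0612), and that of Pgam1 in 7 of 16 alternative analyses (adjusted p up to 0.0921).

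The last step, pyruvate kinase, went the other way. Pkm (ENSMUSG00000032294, mm10 chromosome 9, 59656368 to 59679375, plus strand), the gene of the muscle-type M1 and M2 forms, was at 281, 278 and 307 CPM in wild-type-labelled libraries and 205, 174, 191 and 197 CPM in knockout-labelled ones. The groups were wide apart and the level was 1.51-fold lower (log2 fold change -0.59, SE 0.07, edgeR adjusted p = 0.000637). Pklr, the liver and red cell form that the proximal tubule also uses, was at 23.98, 25.5 and 39.9 CPM against 21.9, 21.2, 22.8 and 21.4 CPM. Its groups did not overlap, but wild-type replicate 3 held a far higher value than the others and the gene was not called (log2 fold change -0.45, SE 0.16, edgeR adjusted p = 0.0706). Without that library the log2 fold change of Pklr was -0.19 (edgeR adjusted p = 0.0693), and without wild-type replicate 1 it was -0.59 (edgeR adjusted p = 0.0342). Pkm was 90.7% ± 1.95 (SD, n = 3) of the summed CPM of the pair in wild-type-labelled libraries and 89.8% ± 0.62 (SD, n = 4) in knockout-labelled ones. These shares overlapped and were not scaled for exon length. Across the 14 enzymes from hexokinase to pyruvate kinase, 4 were called higher and 4 lower, and the median log2 fold change was -0.10. That is 28.6% each way, against 23% higher and 17.1% lower among tested genes averaging 10 CPM or more. Those called lower were Hk1, Hk2, Pfkp and Pkm, and those called higher were Tpi1, Gapdh, Pgk1 and Pgam1.

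**Figure D3:**
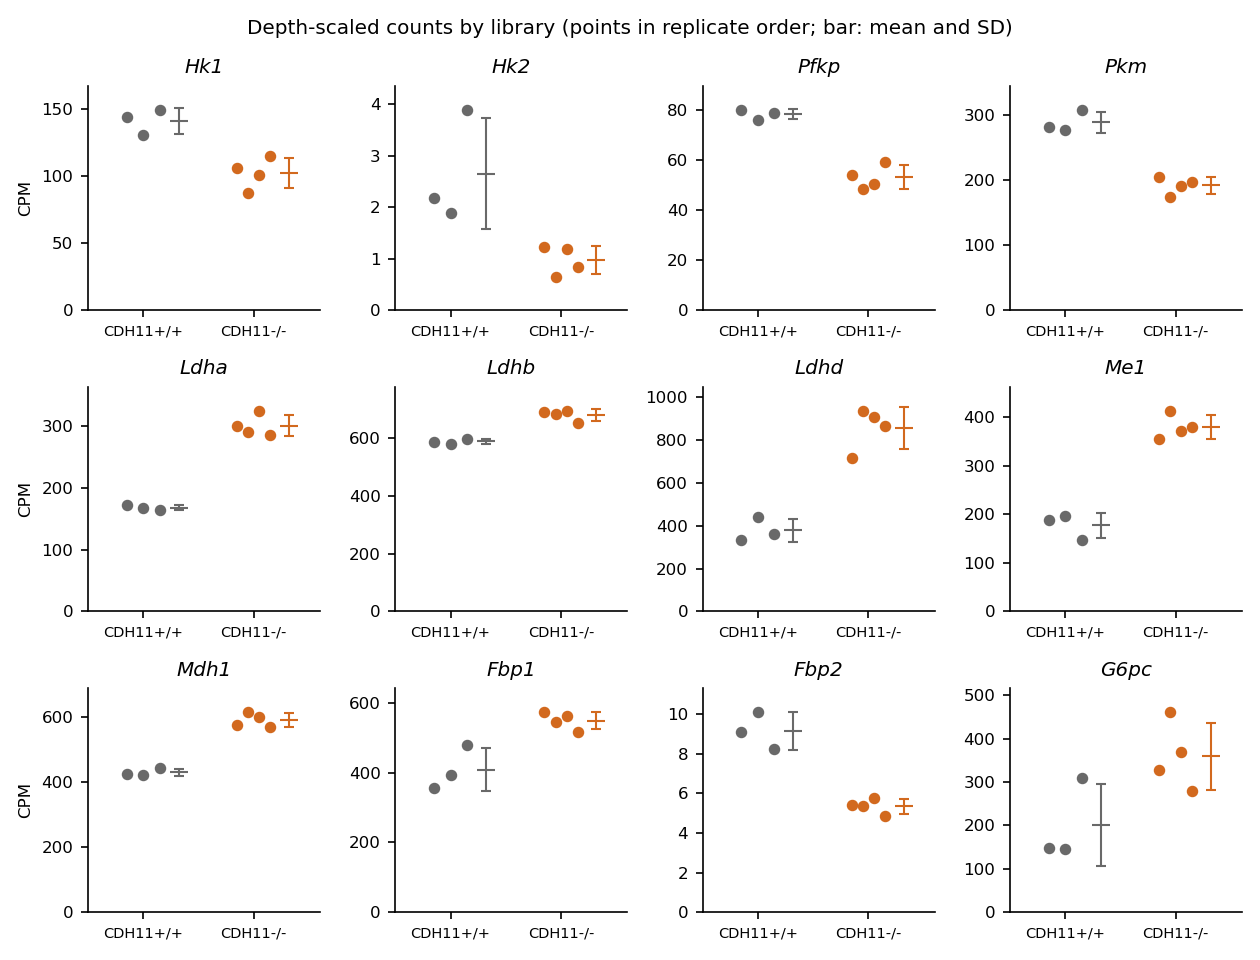
CPM of 12 enzymes in each library (points, in replicate order), with the mean and SD of each labelled group (n = 3 for CDH11+/+, n = 4 for CDH11-/-). Hk1, Hk2, Pfkp, Pkm and Fbp2 lie lower in every library labelled CDH11-/-, Ldha, Ldhb, Ldhd, Me1, Mdh1 and Fbp1 lie higher, and G6pc overlaps through wild-type replicate 3, at 309 CPM.

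All 3 lactate dehydrogenases were higher in the knockout-labelled libraries. Ldha (ENSMUSG00000063229, mm10 chromosome 7, 46841475 to 46855627, plus strand), the subunit of the muscle-type enzyme associated with lactate production, was at 173, 167 and 165 CPM in wild-type-labelled libraries and 300.4, 291, 325 and 286 CPM in knockout-labelled ones. The wild-type-labelled values were nearly equal, the knockout-labelled ones all far above them, and the level was 1.79-fold higher (log2 fold change 0.84, SE 0.07, edgeR adjusted p = 7.86e-05), the smallest adjusted p of the 43. Ldhb (ENSMUSG00000030246, mm10 chromosome 6, 142490249 to 142507957, minus strand), the heart-type subunit associated with lactate use, was more abundant, at 588, 581 and 597 CPM against 691, 685, 694 and 652 CPM. Its rise was 1.16-fold without overlap (log2 fold change 0.21, SE 0.06, edgeR adjusted p = 0.0325), and the call was lost in 8 of 16 alternative analyses (adjusted p up to 0.151, from limma on the normalized values). Ldha formed 22.8%, 22.3% and 21.6% of the summed CPM of the pair in wild-type-labelled libraries and 30.3%, 29.8%, 31.9% and 30.5% in knockout-labelled ones. These shares, not scaled for exon length, did not overlap, at 22.2% ± 0.59 (SD, n = 3) and 30.6% ± 0.87 (SD, n = 4). Ldhd (ENSMUSG00000031958, mm10 chromosome 8, 111623785 to 111630374, minus strand), the mitochondrial enzyme that oxidises D-lactate, was at 335, 439 and 361 CPM against 717, 936, 908 and 865 CPM. All knockout-labelled values were above the highest wild-type-labelled one, a 2.27-fold higher level (log2 fold change 1.18, SE 0.12, edgeR adjusted p = 0.000257). Ldhd lies 8.84 Mb from Cdh11 on the same chromosome, and on a mixed strain background the genotype and alleles linked to it cannot be told apart. Ldha lies on another chromosome.

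Among enzymes of gluconeogenesis, 1 of 6 was called higher, 1 lower and 4 were not called. These counts, 16.7% each way, were near the shares of all tested genes, 16.8% higher and 12.9% lower. Among tested genes averaging 10 CPM or more, as 5 of the 6 did, the shares were 23% and 17.1%. Pck1, the cytosolic phosphoenolpyruvate carboxykinase, was the most abundant of the 43, at 2577, 3509.7 and 4128 CPM in wild-type-labelled libraries and 2342, 2674, 3745 and 3992 CPM in knockout-labelled ones. The groups overlapped almost completely (log2 fold change -0.09, SE 0.22, edgeR adjusted p = 0.78). Pck2, its mitochondrial relative, was at 13.1, 12.3 and 12.6 CPM against 13.9, 14.2, 14.9 and 13.1 CPM and was not called (log2 fold change 0.14, SE 0.07, edgeR adjusted p = 0.157). Fbp1 (ENSMUSG00000069805, mm10 chromosome 13, 62864753 to 62888282, minus strand), fructose bisphosphatase of liver and kidney, was at 356, 392 and 477 CPM against 573, 545, 562 and 515 CPM. It was 1.34-fold higher without overlap (log2 fold change 0.43, SE 0.10, edgeR adjusted p = 0.0124), and without wild-type replicate 1 its edgeR adjusted p was 0.0517. Its muscle relative Fbp2 (ENSMUSG00000021456, mm10 chromosome 13, 62836877 to 62858422, minus strand), a neighbour of Fbp1 on the chromosome, went the opposite way, at 9.10, 10.1 and 8.23 CPM against 5.41, 5.37, 5.76 and 4.85 CPM. The groups were apart and the level was 1.71-fold lower (log2 fold change -0.77, SE 0.10, edgeR adjusted p = 0.000775). G6pc, glucose 6-phosphatase, which releases free glucose, was at 148, 146 and 309 CPM against 327, 461, 369.8 and 279 CPM. Wild-type replicate 3 overlapped the knockout-labelled range and the other 2 wild-type-labelled libraries lay far below it, so the gene was not called (log2 fold change 0.84, SE 0.31, edgeR adjusted p = 0.0868). Without that library the log2 fold change of G6pc was 1.28 (edgeR adjusted p = 0.00372). Pyruvate carboxylase, Pcx, was at 326, 478 and 439 CPM against 488, 502, 526 and 487 CPM and was not called (log2 fold change 0.27, SE 0.12, edgeR adjusted p = 0.115). Khk, ketohexokinase, the entry of fructose, was at 171, 183 and 218 CPM against 249, 253, 264 and 222 CPM. It was 1.30-fold higher without overlap (log2 fold change 0.37, SE 0.10, edgeR adjusted p = 0.017), with an edgeR adjusted p of 0.0777 without wild-type replicate 1 and 0.0575 without replicate 2.

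Most, but not all, enzymes of the pyruvate dehydrogenase complex and the citric acid cycle were higher. Of their 15 enzymes, 11 were called higher and 0 lower by edgeR, 0 were lower at an unadjusted p under 0.05, and DESeq2 and limma-voom also called 0 lower. The share called higher was 73.3%, against 23% of tested genes averaging 10 CPM or more. In 12 the knockout-labelled values lay above all others, as they did for 21.9% of all tested genes. Their CPM summed to 2533 to 2624 in wild-type-labelled libraries and to 3002 to 3121 in knockout-labelled ones. In the complex, which turns pyruvate to acetyl-CoA, the E1 alpha subunit Pdha1 was at 307, 309 and 282 CPM against 344, 374, 371 and 373 CPM (log2 fold change 0.29, SE 0.07, edgeR adjusted p = 0.0105). Dld, the E3 subunit shared with the oxoglutarate dehydrogenase complex, was at 138, 138 and 118 CPM against 154, 178, 154 and 169.6 CPM (log2 fold change 0.32, SE 0.08, edgeR adjusted p = 0.0172). Both were higher in every knockout-labelled library, by 1.22-fold and 1.25-fold. The E2 subunit Dlat, at 92.1, 93.6 and 90.1 CPM against 100.03, 104, 102 and 107 CPM, was 1.13-fold higher (log2 fold change 0.17, SE 0.05, edgeR adjusted p = 0.0391), and this call was lost in 9 of 16 alternative analyses. The deposited normalized values gave Dlat the lowest log2 fold change of these, 0.026 (limma adjusted p = 0.811). The E1 beta subunit Pdhb, at 70.4, 70.2 and 70.8 CPM against 78.5, 78.4, 74.8 and 80.9 CPM, did not overlap but was not called (log2 fold change 0.15, SE 0.05, edgeR adjusted p = 0.0607).

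In the cycle itself, 8 of 11 enzymes were called higher, and the median log2 fold change over the 11 was 0.27. Sucla2, the ATP-forming beta subunit of succinyl-CoA ligase, was at 89.4, 88.05 and 79.2 CPM in wild-type-labelled libraries and 107, 130.2, 126 and 121 CPM in knockout-labelled ones. This was the cycle's largest difference, 1.41-fold without overlap (log2 fold change 0.50, SE 0.08, edgeR adjusted p = 0.00219). The shared alpha subunit Suclg1, at 153, 164 and 151 CPM against 168, 181, 182 and 181 CPM, was 1.14-fold higher (log2 fold change 0.19, SE 0.06, edgeR adjusted p = 0.0428). The GTP-forming beta subunit Suclg2, at 157, 194.5 and 163 CPM against 194.2, 224, 199 and 207 CPM, was 1.20-fold higher with wild-type replicate 2 just inside the knockout-labelled range (log2 fold change 0.27, SE 0.09, edgeR adjusted p = 0.0489). Both calls were unstable, that of Suclg1 lost in 8 and that of Suclg2 in 10 of 16 alternative analyses (adjusted p up to 0.132 and 0.176). A processed pseudogene held 8.84% to 11.8% of the joint Suclg2 counts. Isocitrate dehydrogenase 3, the NAD-dependent enzyme, differed by subunit. Idh3g was at 106, 112 and 114 CPM against 141, 146, 142 and 138 CPM, 1.29-fold higher (log2 fold change 0.36, SE 0.06, edgeR adjusted p = 0.0017). Idh3b was at 129.5, 137 and 134 CPM against 157, 162, 169 and 159 CPM, 1.21-fold higher (log2 fold change 0.27, SE 0.06, edgeR adjusted p = 0.00681). The catalytic subunit Idh3a was at 105, 100.3 and 97.8 CPM against 101, 105, 92.7 and 105 CPM, with a log2 fold change of 0.00 and SE of 0.06 (edgeR adjusted p = 0.99). The beta and gamma subunits thus stood apart between groups where the alpha subunit overlapped, and the difference between subunits was not tested.

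The 2 unique subunits of the oxoglutarate dehydrogenase complex were both higher. Dlst was at 231, 249 and 250.3 CPM in wild-type-labelled libraries and 289.9, 295, 307 and 298 CPM in knockout-labelled ones, 1.22-fold higher (log2 fold change 0.29, SE 0.06, edgeR adjusted p = 0.0071). Ogdh was at 480.4, 497 and 557 CPM against 615, 601, 584 and 590.3 CPM, 1.17-fold higher (log2 fold change 0.22, SE 0.07, edgeR adjusted p = 0.0443). Neither overlapped, but the call of Ogdh was lost in 10 of 16 alternative analyses (adjusted p up to 0.166). Mdh2, mitochondrial malate dehydrogenase, was at 189, 182 and 198 CPM against 226, 229, 234 and 228 CPM, 1.21-fold higher without overlap (log2 fold change 0.27, SE 0.06, edgeR adjusted p = 0.00742). Citrate synthase, Cs, at 174, 169 and 186 CPM against 206, 194, 194 and 196 CPM, did not overlap and was not called (log2 fold change 0.16, SE 0.06, edgeR adjusted p = 0.0708). Fumarase, Fh1, at 112, 121 and 118 CPM against 120.2, 121, 125 and 123 CPM, overlapped (log2 fold change 0.06, SE 0.06, edgeR adjusted p = 0.448). Outside the 43, the 4 subunits of succinate dehydrogenase all had knockout-labelled values above the others and 3 were called higher. Their CPM summed to 807 to 842 in wild-type-labelled libraries and 949 to 1013 in knockout-labelled ones.

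**Figure D4:**
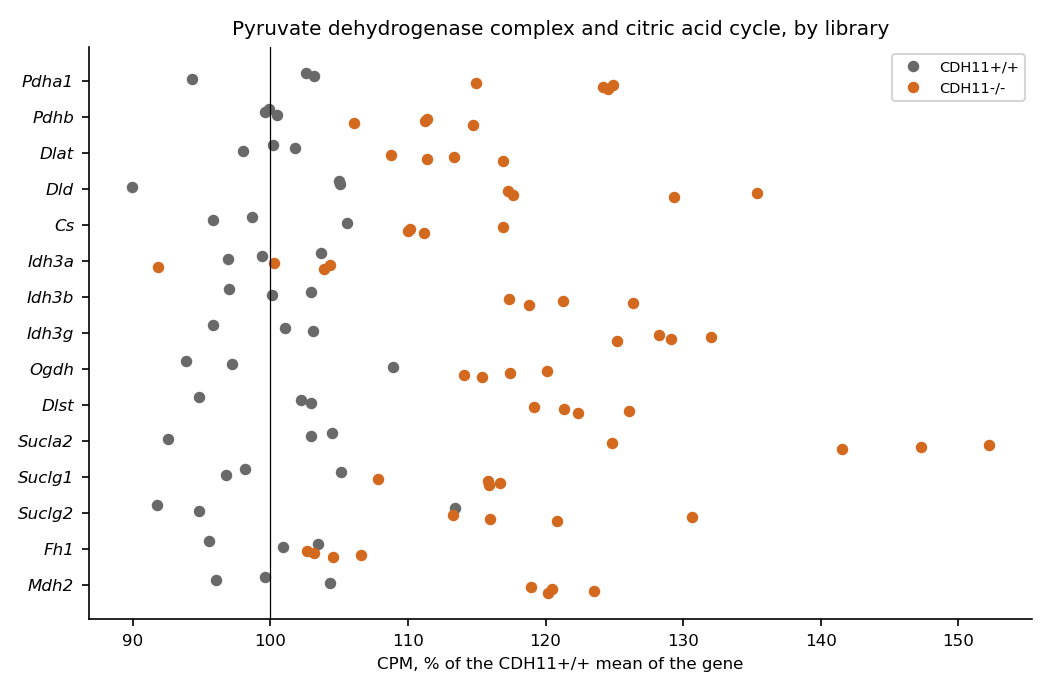
CPM of the 15 enzymes of the pyruvate dehydrogenase complex and citric acid cycle in each library, as a percent of the mean of that gene in the 3 libraries labelled CDH11+/+. Points of the 4 libraries labelled CDH11-/- lie to the right of all others for 12 enzymes and overlap for Idh3a, Suclg2 and Fh1, and they reach 152% for Sucla2.

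Of 4 enzymes at the cytosolic and NADP-linked edges of the cycle, the 2 cytosolic malate enzymes were higher and the 2 isocitrate dehydrogenases were not called. Me1 (ENSMUSG00000032418, mm10 chromosome 9, 86581371 to 86695953, minus strand), malic enzyme, which makes NADPH while turning malate to pyruvate, was at 188, 197 and 148 CPM in wild-type-labelled libraries and 356, 413, 372 and 379.6 CPM in knockout-labelled ones. The groups were widely separated and the level was 2.14-fold higher (log2 fold change 1.10, SE 0.11, edgeR adjusted p = 0.000174). Mdh1 (ENSMUSG00000020321, mm10 chromosome 11, 21556787 to 21572367, minus strand), malate dehydrogenase of the malate-aspartate shuttle, was at 427, 422 and 442 CPM against 576, 616, 601 and 571 CPM. It too had no overlap, at 1.37-fold higher (log2 fold change 0.46, SE 0.06, edgeR adjusted p = 0.00101). Idh1, at 274, 332 and 292 CPM against 288, 295, 252 and 254 CPM, overlapped (log2 fold change -0.14, SE 0.09, edgeR adjusted p = 0.281). Idh2, its mitochondrial relative, was at 216, 209.9 and 243 CPM against 233, 236, 261 and 247 CPM and overlapped too (log2 fold change 0.13, SE 0.07, edgeR adjusted p = 0.211). Me3, a mitochondrial malic enzyme outside the 43, was lower, at 32.2, 31.3 and 33.7 CPM against 26.04, 26.7, 25.5 and 26.5 CPM (log2 fold change -0.30, SE 0.06, edgeR adjusted p = 0.00355).

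Levels of different enzymes can be set side by side only per length, here the merged length of all annotated exons of a gene. That length can exceed the length of the transcripts present, as for Pck2 at 7806 bases or Ldhd at 5328 bases it may. The order below is therefore approximate. On the scale of CPM per kilobase in wild-type-labelled libraries, Pck1 led at 993, followed by Ldhb at 375, Fbp1 at 239.97, Aldoa at 211 and Mdh1 at 168. In knockout-labelled libraries the same 5 led, at 929.7, 433, 322, 189.7 and 230.2 in that gene order, so that Mdh1 stood above Aldoa there. Hk2 and Pck2 were at the other end, at 0.444 and 1.62 CPM per kilobase in wild-type-labelled libraries. This order leaves out counts assigned to near-identical copies, which hold most of the joint Gapdh counts, so the place of Gapdh in it is uncertain.

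A list of 38 further genes held remaining isozymes, subunits, kinases, phosphatases and carriers of the same pathways, and also regulators such as Ppargc1a and Hif1a. Of the 38, 35 had enough counts to test. Of these, 8 were called higher, 6 lower and 21 were not called, and their median log2 fold change was 0.16 over all 35. The shares, 22.9% higher and 17.1% lower, were close to the 23% and 17.1% among tested genes averaging 10 CPM or more. Only 25 of the 35 reached that mean, and of all tested genes 16.8% were called higher and 12.9% lower. Pdk3, a kinase that switches the pyruvate dehydrogenase complex off, was at 25.3, 23.4 and 22.95 CPM in wild-type-labelled libraries and 40.6, 45.8, 47.3 and 46.3 CPM in knockout-labelled ones. It was 1.89-fold higher without overlap (log2 fold change 0.92, SE 0.07, edgeR adjusted p = 7.86e-05), in the same libraries in which 3 subunits of the complex were higher. The other kinases of the complex were not called: Pdk1 (-0.17, edgeR adjusted p = 0.191), Pdk2 (0.24, edgeR adjusted p = 0.183) and Pdk4 (0.79, edgeR adjusted p = 0.236). Pdk2 was more abundant than Pdk3, with means over all libraries of 141 and 35.9 CPM. Pfkfb3, which makes the fructose 2,6-bisphosphate that activates phosphofructokinase, was at 25.4, 27.98 and 29.8 CPM against 18.3, 18.01, 17.7 and 18.4 CPM. It was lower in every knockout-labelled library (log2 fold change -0.62, SE 0.07, edgeR adjusted p = 0.000323), as were Hk1, Pfkp and Pkm. Its relatives Pfkfb1, Pfkfb2 and Pfkfb4 were not called. Pfkfb2, similar to Pfkfb3 in mean CPM over all libraries (22.7 and 22.2), had a log2 fold change of -0.04 (edgeR adjusted p = 0.663). Sdhb (0.39, edgeR adjusted p = 0.00205) and Sdhc (0.35, edgeR adjusted p = 0.00549), subunits of succinate dehydrogenase, had positive log2 fold changes. The same held for G6pc3, a widely expressed glucose 6-phosphatase (0.30, edgeR adjusted p = 0.00655), Aco1, cytosolic aconitase (0.30, edgeR adjusted p = 0.00736), and Pdhx, the E3 binding protein (0.24, edgeR adjusted p = 0.0198). Eno3, muscle enolase, was lower (-0.62, edgeR adjusted p = 0.00989). Among those called lower were also the regulators Ppargc1a (-0.42, edgeR adjusted p = 0.0243) and Hif1a (-0.26, edgeR adjusted p = 0.0402). The groups overlapped for Hif1a but not for Ppargc1a. The call of Pdhx was lost without wild-type replicate 3, knockout replicate 2 or knockout replicate 3 (edgeR adjusted p up to 0.0632), and that of Eno3 on the deposited normalized values (limma adjusted p = 0.289).

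Markers of cell types moved between the same libraries. The 12 proximal tubule markers summed to 10849 to 12363 CPM in wild-type-labelled libraries and 15797 to 17805 CPM in knockout-labelled ones. Of these markers, 6 were called higher and 1 lower, where 16.8% and 12.9% of all tested genes were. Among tested genes averaging 10 CPM or more, as all 12 did, the shares were 23% and 17.1%. Slc34a1, the phosphate transporter of that segment, was 2.20-fold higher (edgeR adjusted p = 0.000433), and Slc27a2 was 1.48-fold higher (edgeR adjusted p = 0.000565). The 1 called lower was Slc22a8 (log2 fold change -0.87, edgeR adjusted p = 0.00221), named after its value was seen. The other tubule segments had lower sums: 3229 to 4206 against 2035 to 2696 CPM for 4 distal convoluted tubule markers, 362 to 518 against 270.2 to 318 CPM for 6 principal cell markers, 197 to 339.9 against 144 to 193 CPM for 6 intercalated cell markers, and 4977 to 6382 against 4105 to 4817 CPM for 6 thick ascending limb markers. Endothelial markers (6) summed to 329.9 to 409 against 239 to 292 CPM and podocyte markers (5) to 403 to 498 against 249 to 367 CPM. Counts of markers called lower were 1 of 4 for distal convoluted tubule, 4 of 6 for principal cells, 3 of 6 for intercalated cells, 1 of 6 for thick ascending limb, 3 of 6 for endothelium and 4 of 5 for podocytes, and a thick ascending limb marker was called higher. Of all tested genes 12.9%, and of those averaging 10 CPM or more 17.1%, were called lower, so the count for thick ascending limb is near the background share. In the distal convoluted tubule list the call was Slc12a3 (log2 fold change -0.78, edgeR adjusted p = 0.00219), which also held most of the sum. Pvalb of that list went the other way without being called (log2 fold change 0.70, edgeR adjusted p = 0.0901). The most strongly supported of these were Kcnj1, Slc12a3, Scnn1g, Atp6v1g3, Flt1 and Wt1, the first in each list by adjusted p. Sums for fibroblasts and smooth muscle (194 to 331 against 269 to 331 CPM), leukocytes (31.5 to 64.9 against 58.9 to 70.5 CPM) and red blood cells (576 to 701 against 525 to 934 CPM) overlapped between groups. Single markers in them did differ. In the fibroblast and smooth muscle list, Col1a1 was 2.48-fold higher (edgeR adjusted p = 0.0292) and Pdgfrb was lower (log2 fold change -0.35, edgeR adjusted p = 0.0168). Among leukocyte markers, Csf1r was 1.80-fold higher (edgeR adjusted p = 0.0269). The other markers of these lists were not called. Skeletal muscle and fat markers summed to at most 0.3005 CPM in any library, with Adipoq at 0 counts, and the kidney markers Umod and Slc34a1 were abundant in all 7. What part these markers have in the enzyme differences was not tested.

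**Figure D5:**
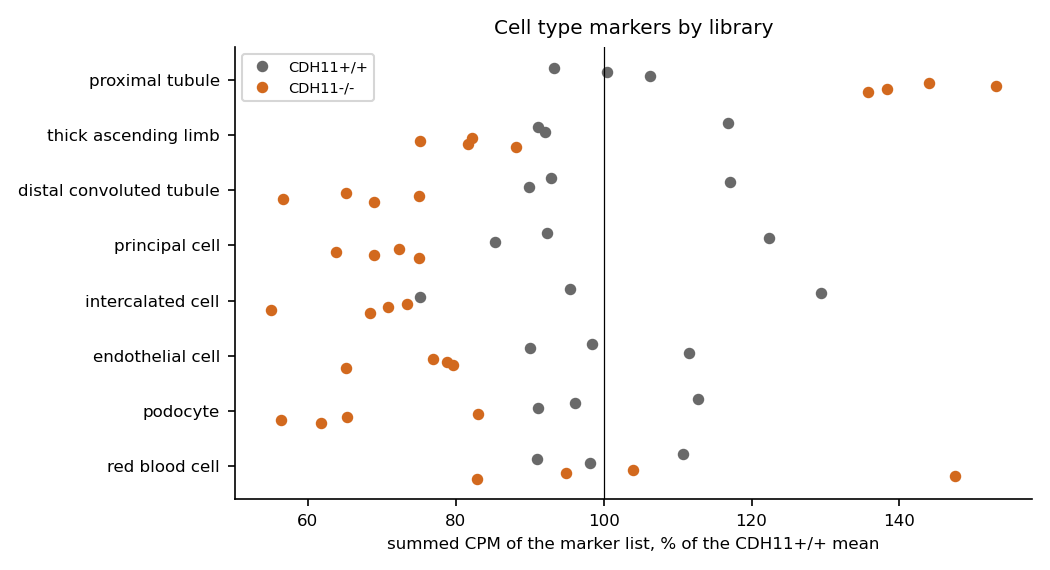
Summed CPM of 8 marker lists in each library, as a percent of the mean of the 3 libraries labelled CDH11+/+. Proximal tubule sums of the 4 libraries labelled CDH11-/- lie at 136% to 153%, to the right of all others, and their distal convoluted tubule, principal cell, endothelial and podocyte sums lie to the left.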

How the data were processed

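RNA-seq libraries of 7 kidneys were analysed, 3 labelled CDH11+/+ and 4 labelled CDH11-/-. The deposited expected counts are the authors' estimated reads per gene, given as whole numbers, and no further rounding was needed. The deposited normalized values are a signal that the authors made from these counts with factors that differ between genes, so they served only as an alternative. DRAGEN, DESeq2 and mm10 appear without versions in the submitters' processing notes, and strand setting and annotation release are not given in the sources used here. RNA came from Trizol homogenates and libraries from a directional kit, per the labels' protocols.

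Symbols, positions and exon lengths came from GENCODE M21 on the mm10 assembly. Exon length was the merged length of all annotated exons of a gene. Total counts of 72087906 to 84786351 per library, with a biological coefficient of variation of 15.2% across genes, set the precision. Genes were filtered with filterByExpr (17964 left), scaled by TMM and tested with edgeR 4.0.16 in R 4.3.3, by the robust quasi-likelihood test without covariates. SE was the log2 fold change divided by the square root of the F statistic. The edgeR step was also run on simulated counts with the same biological coefficient of variation for every gene and no outlying library. That run does not give the error rates for these data. Near-identical copies were rows of at least 95% identity over 500 aligned bases (BLAST 2.17.0). Alternatives were DESeq2 1.42.0, limma 3.58.1 (voom with quality weights on counts, and trend on log2 of the normalized value plus 1), other scalings and filters, no robust estimation and the omission of each library. The addition of near-identical copies was chosen after seeing the data. Summaries used Python 3.11.15 and pandas 2.3.3.

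The 21 pairs of libraries differed by more than counting noise in a chi-square test per gene, so no library was taken for another deposited again. This does not show that they came from separate mice. Replicate numbers follow the order of deposit. Nothing beyond the labels says that libraries came from separate mice, so p-values measure the spread between these libraries.

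The enzymes, the other gene lists and the tests were chosen with earlier results of these data known. Named with full values were up to 26 called enzymes by adjusted p, up to 10 called other pathway genes, and up to 2 called markers of a cell type. The remaining enzymes, and some other pathway genes and markers, were named after their values were seen. Some genes that meet the naming rule are not reported here.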

Additional observations from a re-analysis of the deposited data

Results flagged for a closer look

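In 68 sets of 4 knockout-labelled values, of single genes or of isozyme shares, 4 had a library far from the other 3 by Dixon's criterion. Chance flags about 1 in 20 such groups, but shares of the same isozyme set depend on one another. All 4 flagged sets were of single genes. Knockout replicate 1 was that library each time. It was high for aldolase A (Aldoa, 603 CPM) and citrate synthase (Cs, 206 CPM), and low for Pdha1 (344 CPM) and Suclg1 (168 CPM). Without this library, Pdha1 kept its call.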

How the results depend on the processing

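Of the 27 called enzymes, 18 kept their call in all 16 alternatives and 0 changed direction in any. The other 9 each lost it in at least 1: Gapdh, Pgam1, Ldhb, Fbp1, Khk, Dlat, Ogdh, Suclg1 and Suclg2. Another 6 that were not called passed in some alternative (Gpi1, Pklr, G6pc, Pcx, Pdhb and Cs). With single libraries left out, enzymes called higher ranged from 13 (without wild-type replicate 1) to 19, enzymes called lower from 5 to 6, other pathway genes called higher from 5 (without knockout replicate 2 and without 3) to 8, and those called lower from 4 to 6. In the other alternatives enzymes called higher ranged from 16 (no low-count filter) to 25 (limma-voom) and enzymes called lower from 5 to 7. Genes called in all, 5327, ranged from 3804 to 5300 with single libraries left out and from 4660 to 6005 otherwise. Scaling moved the median log2 fold change of all genes by at most 0.013.

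Signs changed only for 4 named genes within 0.1 of 0 in the reported analysis, and none of them was called in any analysis. With limma-voom the log2 fold change was 0.021 for Pfkl, 0.010 for Eno1, 0.037 for Pck1 and -0.028 for Idh3a. Idh3a was also -0.010 with DESeq2, -0.0100 with relative log expression scaling, -0.012 with upper-quartile scaling, -0.011 with a mean of at least 1 CPM, -0.0104 with no filter and -0.0054 on normalized values. With single libraries left out, Pfkl ranged from -0.11 to 0.046, Eno1 from -0.098 to 0.035, Pck1 from -0.27 to 0.058, and Idh3a from -0.030 to 0.041. The cause was not tested.

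No paired analysis was possible because replicate numbers follow the order of deposit and the labels tie no library of a group to one of the other. Depth limited Hk2 most, at 47 to 336 counts per library.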
